A study of Homo sapiens with 2 samples.

Results

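The Fc receptor-like (FCRL) family was examined in Ramos cells and in their rituximab-resistant derivative, Ramos640. The family was taken as the 8 FCRL genes of chromosome 1, FCRL1 to FCRL6, FCRLA and FCRLB, which each have 1 row among the 37122 rows of the RNA-seq count table. They were chosen by name, with earlier results of these data known, and no count enters the rule. Ramos is an established human Burkitt's lymphoma (BL) cell line of B-cell origin. Ramos640 was derived from it by growth in rising concentrations of rituximab, a therapeutic antibody against CD20, together with normal human serum (NHS) as a source of complement. It was re-treated every 21 days with rituximab and 20% NHS to keep the resistance. The labels give the rituximab concentration as 640 mg/mL, and the methods of the study give the unit as μg/mL. Both lines were kept in RPMI 1640 medium with fetal bovine serum and penicillin/streptomycin. How long after the last treatment the RNA was taken, and whether Ramos640 is 1 clone, is not given in the sources used here.

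The RNA was a pool of 3 passages of each line, which leaves 1 library per cell line. No difference between the lines has a replicate check, no p-value is given, and every interval below is an exact 95% interval that covers counting error only. Ramos had 38030090 reads on genes and Ramos640 had 30871826. The fold change is that of Ramos640 over Ramos after division by size factors, with 1 added to each normalized count. It was given for the 18778 genes whose reads in both libraries summed to 10 or more, over which its median was -0.015 on the log2 scale. Reads of defining B-cell genes were plentiful, with 160690 in Ramos and 149621 in Ramos640 over 8 genes. CD79A had 25460 and 29007 reads and CD22 had 38776 and 22738, while MS4A1, which encodes CD20, the target of rituximab, had 9654 and 1904 (log2 fold change -1.96), and PAX5 (-0.80) and EBF1 (-0.55) were lower too. Markers of other cells were scarce. The summed reads in Ramos and Ramos640 were 17 and 51 over 6 T cell genes, 24 and 39 over 6 NK cell genes, and 18 and 19 over 6 monocyte genes, and CD3D, CD2, CD8A, GNLY, GZMB and ITGAM had none in either. Some were higher in Ramos640 within these low counts, namely CD3E with 1 and 31 reads, NCAM1 with 0 and 10 and PRF1 with 10 and 26. Because RNA was measured in bulk, fewer cells that express a gene and less RNA per cell cannot be told apart.

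The FCRL genes encode relatives of the classical receptors for the Fc part of antibodies. FCRL1 to FCRL5 are surface proteins, found mainly on B cells, whose cytoplasmic tails carry tyrosine motifs. The tail of FCRL1 resembles an activating motif, while FCRL2 to FCRL5 carry inhibitory motifs that can recruit the phosphatase SHP-1 and dampen signaling of the B-cell antigen receptor. FCRL6 is known from cytotoxic T cells and NK cells. FCRLA and FCRLB lack a membrane anchor and stay inside the cell, and FCRLA resides in the endoplasmic reticulum of B cells, where it can bind immunoglobulin. In normal B cells FCRLA is abundant at the germinal center stage, the stage that BL resembles.

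On GRCh37, the genes FCRL5, FCRL4, FCRL3, FCRL2 and FCRL1 lie side by side on the minus strand of chromosome 1, from 157483167, where FCRL5 begins, to 157789910, where FCRL1 ends. FCRL6 lies apart on the plus strand, from 159770301 to 159786047. FCRLA (161676762 to 161684142) and FCRLB (161691334 to 161697933) lie next to each other on the plus strand. FCRL3 overlaps an unnamed long non-coding RNA gene on the opposite strand, and the other 7 genes overlap no annotated gene. Whether reads were counted by strand is not stated, so reads of FCRL3 and of this gene cannot be told apart.

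The promoters of the genes with most reads, FCRLA, FCRL1, FCRLB and FCRL2, are shown, and each of these genes was lower in Ramos640. The promoter of FCRL5 is shown as well, a gene with too few reads to detect a difference. The sequences are from RefSeq on GRCh38.p14, and each runs from 250 bases before to 50 bases after the start of the gene. Capitals mark matches on either strand to AGGAAGT, the core that ETS factors such as PU.1 recognize, and in FCRLB to the octamer ATTTGCAT, which Oct factors recognize.
FCRLA (chr1:161706979-161707278, plus strand): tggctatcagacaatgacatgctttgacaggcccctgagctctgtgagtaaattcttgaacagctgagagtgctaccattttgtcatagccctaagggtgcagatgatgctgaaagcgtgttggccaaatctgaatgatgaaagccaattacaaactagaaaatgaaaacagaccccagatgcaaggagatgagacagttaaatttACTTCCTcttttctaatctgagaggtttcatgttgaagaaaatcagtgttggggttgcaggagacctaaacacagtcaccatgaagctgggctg
FCRL1 (chr1:157820071-157820370, minus strand): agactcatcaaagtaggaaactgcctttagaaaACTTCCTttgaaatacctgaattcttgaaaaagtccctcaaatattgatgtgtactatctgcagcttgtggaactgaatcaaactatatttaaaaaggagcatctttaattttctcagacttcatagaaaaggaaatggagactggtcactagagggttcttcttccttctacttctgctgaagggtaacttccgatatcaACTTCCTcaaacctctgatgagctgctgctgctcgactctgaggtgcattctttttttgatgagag
FCRLB (chr1:161721294-161721593, plus strand): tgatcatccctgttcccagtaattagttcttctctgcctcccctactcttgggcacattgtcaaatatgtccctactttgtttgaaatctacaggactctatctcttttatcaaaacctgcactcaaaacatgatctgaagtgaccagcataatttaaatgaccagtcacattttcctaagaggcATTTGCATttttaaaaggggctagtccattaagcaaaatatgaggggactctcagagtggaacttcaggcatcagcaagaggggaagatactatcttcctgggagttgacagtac
FCRL2 (chr1:157777083-157777382, minus strand): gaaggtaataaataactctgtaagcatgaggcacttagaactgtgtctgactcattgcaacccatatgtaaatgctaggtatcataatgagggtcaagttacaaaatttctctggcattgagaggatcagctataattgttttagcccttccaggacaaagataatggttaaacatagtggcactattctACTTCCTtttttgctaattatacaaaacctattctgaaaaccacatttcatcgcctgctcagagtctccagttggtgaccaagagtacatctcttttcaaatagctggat
FCRL5 (chr1:157552466-157552765, minus strand): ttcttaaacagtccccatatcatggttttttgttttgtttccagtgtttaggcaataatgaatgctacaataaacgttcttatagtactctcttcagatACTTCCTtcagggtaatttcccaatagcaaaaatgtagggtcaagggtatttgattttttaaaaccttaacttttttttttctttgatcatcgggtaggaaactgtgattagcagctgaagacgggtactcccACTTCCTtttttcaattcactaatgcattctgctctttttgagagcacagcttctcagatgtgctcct

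RefSeq lists 11 promoters for the 8 genes. AGGAAGT was present in 5 of them, those of FCRL1, FCRL2, FCRL5, FCRLA and the second of 2 promoters of FCRL6, and in 8.24% of the 35116 promoters of all genes. FCRL1 and FCRL5 held it at 2 places. The octamer was found in the first of the promoters of FCRLB, against 1.77% of all promoters. A motif of IRF factors, GAAA and GAAA with 2 bases of any kind between them, was in the promoters of FCRL1 and FCRLA, against 3.57% of all. CAGGTG, a motif of E proteins, was in none of the 11, against 20.6% of all promoters. The motif of EBF1, TCCC and GGGA with 2 bases between them, and the NF-κB site of the immunoglobulin kappa enhancer were not found either, against 1.21% and 0.191% of all promoters. No match of 1 motif shared bases with a match of another. The motifs were chosen after these sequences had been read, and a match describes letters only.

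The data showed a family dominated by FCRLA in both lines and lower in Ramos640 at each of the 4 genes with more than 100 reads. FCRL2 and FCRLB were lower by more than 2-fold, FCRL1 by 1.62-fold and FCRLA by 1.33-fold. FCRL3 and FCRL5 were near the limit of detection, and FCRL4 and FCRL6 had no reads. Summed over the family there were 26834 reads in Ramos and 15140 in Ramos640, which gave -0.44 on the log2 scale (-0.47 to -0.42). Without FCRLA the sum went from 2449 to 1105 reads and the log2 fold change was -0.77, from -0.87 to -0.66.

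Levels of different genes were compared as RPKM, the reads on a gene divided by its exon length in kilobases and by the library total in units of 1000000 reads. The exon length was that of all exons of a gene together. FCRLA, the intracellular immunoglobulin-binding member, stood at 195.8 RPKM in Ramos (193 to 198) and at 139 RPKM in Ramos640 (137 to 141). It ranked 149th and 222nd among 18955 protein-coding genes. FCRL1, the activating surface member, stood at 13.4 RPKM (12.8 to 14.0) and 7.80 RPKM (7.31 to 8.31), so FCRLA was 14.6-fold above it in Ramos and 17.8-fold above it in Ramos640. FCRLB, the other intracellular member, followed with 2.51 RPKM (2.21 to 2.84) and 1.14 RPKM (0.92 to 1.40). FCRL2, the first of the inhibitory surface members, had 0.879 RPKM (0.751 to 1.02) and 0.314 RPKM (0.232 to 0.415).

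The order FCRLA, FCRL1, FCRLB and FCRL2 was the same in both libraries, and neighbors in it differed beyond their counting intervals. Below them, FCRL3 had 0.053 RPKM in Ramos and 0.025 in Ramos640, and FCRL5 had 0.021 in both. The ratio of FCRL3 to FCRL5 had an interval from 1.01 to 6.37 in Ramos and from 0.31 to 4.17 in Ramos640. With the length of the longest transcript in place of all exons the ratio was 1.51 in Ramos and 0.73 in Ramos640, so the order of FCRL3 and FCRL5 was not settled. FCRL4, which marks a memory B-cell population of epithelial tissue, had 0 of the reads in both libraries, which allows up to 0.020 RPKM in Ramos and 0.025 in Ramos640. FCRL6 also had none, with the floor at 0.029 and 0.036 RPKM and the interval reaching 0.036 and 0.045 RPKM. T cell and NK cell genes, whose cells normally express FCRL6, were as scarce as given above.

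**Figure D1:**
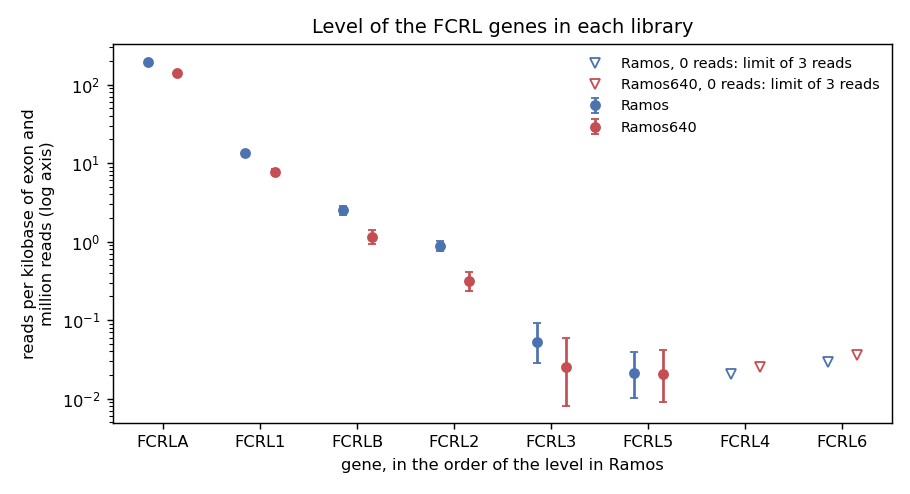
Level of each FCRL gene in RPKM on a log axis, with 1 point per library and exact Poisson 95% intervals. FCRLA stands at 139 RPKM or more in both libraries and FCRL1, FCRLB and FCRL2 follow in the same order, while open triangles give the limit that 0 reads allow for FCRL4 and FCRL6.

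FCRLA had 24385 reads in Ramos against 14035 in Ramos640. The log2 fold change was -0.42 (-0.45 to -0.39), the narrowest of the family and the smallest fall among its 4 genes with more than 100 reads. Of the genes tested, 24.2% had a lower log2 fold change than FCRLA. FCRL1 had 2008 and 951 reads, a log2 fold change of -0.70 (-0.81 to -0.59), with 14.1% of the genes tested below it. The difference between FCRL1 and FCRLA does not depend on how the libraries are scaled, and it was -0.28 on the log2 scale (-0.40 to -0.17). It was smaller once a trend with GC content, given below, was removed.

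FCRLB had 249 and 92 reads, a log2 fold change of -1.05 (-1.42 to -0.70). FCRL2 had 169 and 49 reads, a log2 fold change of -1.39 (-1.89 to -0.94), which was the largest difference of the family. Only 5.13% of the genes tested lay below FCRL2, and 8.19% lay below FCRLB. FCRL2 lay further down than FCRLA by 0.99 on the log2 scale, where FCRL2 minus FCRLA had an interval from -1.48 to -0.52, and FCRL1 lay above FCRL2 by 0.71 (0.23 to 1.21). FCRLA lay above FCRLB by 0.64 (0.29 to 1.00), although these genes are adjacent. FCRLB was not told apart from FCRL1, with a difference of 0.36 for FCRL1 minus FCRLB (-0.012 to 0.74), nor from FCRL2, with a difference of -0.35 for FCRL2 minus FCRLB (-0.96 to 0.25). Of the 15 pairs that the 6 genes with reads form, 4 had an interval that excluded 0, and all 4 were among the 6 pairs without FCRL3 and FCRL5.

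FCRL3, an inhibitory receptor known to bind secretory IgA, had 13 reads in Ramos and 5 in Ramos640. Its log2 fold change of -0.89 came with a range from -2.84 to 0.58, so a difference was not detectable at this depth. FCRL5, which binds IgG and is known from memory B cells and plasma cells, had 10 and 8 reads. Its log2 fold change was 0.053, from -1.48 to 1.55, and it was -0.019 when the libraries were scaled to total counts. Counts this low could hide a change of FCRL3 or FCRL5 as large as that of FCRL2.

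By the fold criterion of the study, 4 of the 6 members with at least 10 reads (FCRL1, FCRL2, FCRL3 and FCRLB) were over 1.5-fold lower in Ramos640 and none was over 1.5-fold higher, against 17.3% lower and 14.6% higher of all genes tested. The interval lay below 0 for 4 members (FCRL1, FCRL2, FCRLA and FCRLB), against 31.6% of all genes tested, and above 0 for none, against 29.6%. Over 2-fold lower were 2 of the 6 members (FCRL2 and FCRLB), against 8.75% of all genes tested. The median log2 fold change of the 6 members was -0.79, and 5 of them were below 0, against 51.2%. This median rests in part on FCRL3, whose interval spans 0. It was -0.57 with 10 added to each normalized count in place of 1, and -0.87 with a minimum of 100 reads. Of the 4 members with at least 100 reads, 3 were over 1.5-fold lower and 2 over 2-fold lower, against 12.6% and 4.75% of the 13677 genes with as many reads, and none was over 1.5-fold higher, against 9.94%. All 4 had an interval below 0, against 37.2%, and 34.9% of those genes had one above 0. The log2 fold change of genes in these libraries ran with the GC content of their transcripts, and at that of FCRL1 the trend stood at -0.12. With that trend removed FCRL1 came to -0.58, just inside the 1.5-fold limit of 0.585, while FCRL2 was at -1.29, FCRLB at -1.21 and FCRLA at -0.44. FCRL1 then lay closer to FCRLA and further from FCRLB than in the pairs above, whose differences and intervals keep the trend.

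**Figure D2:**
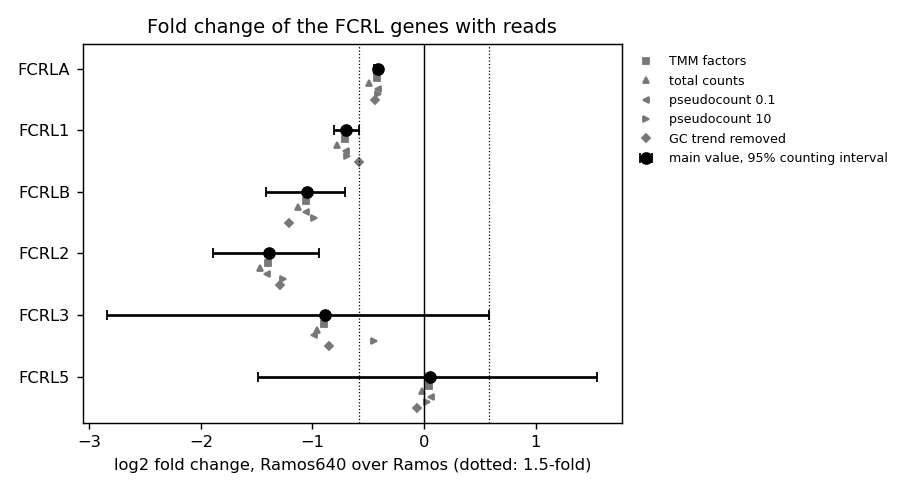
Log2 fold change of Ramos640 over Ramos for the 6 FCRL genes with reads, with the exact 95% counting interval (bars) and the values under 5 other settings (gray symbols below each point). FCRLA, FCRL1, FCRLB and FCRL2 lie below 0 with their intervals and under each setting, and the intervals of FCRL3 and FCRL5 span 0.

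The makeup of the family, which needs no scaling between libraries, moved toward FCRLA. FCRLA held 90.9% of the family's reads in Ramos (90.5% to 91.2%) and 92.7% in Ramos640 (92.3% to 93.1%). The share of FCRL1 was 7.48% (7.17% to 7.80%) and 6.28% (5.90% to 6.68%). FCRLB held 0.928% (0.817% to 1.05%) and 0.608% (0.490% to 0.745%), and FCRL2 held 0.630% (0.539% to 0.732%) and 0.324% (0.240% to 0.428%). For none of these 4 genes did the intervals of the 2 libraries overlap, a count for which no share over all genes was computed. The GC trend given above was not removed from these shares. Shares of 1 total are tied to each other, so the rise of FCRLA and the falls of the others are not separate results. Differences beyond counting error were common, as 37.2% of the genes with at least 100 reads had a fold change interval below 0 and 34.9% above. Weighted by exon length, the share of FCRLA was 92.1% in Ramos and 93.7% in Ramos640.

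The genes around the FCRL loci were examined to see whether the lower counts extended along chromosome 1. Within 1 Mb of the 3 loci lay 124 other protein-coding genes of the table, of which 59 were tested. Of these, 9 were over 1.5-fold higher and 13 over 1.5-fold lower in Ramos640, beside 14.6% and 17.3% of all genes tested, and their median log2 fold change was 0.078. Next to FCRL1 to FCRL5, none of 15 genes was over 1.5-fold higher and 4 were lower, with a median of -0.016. Next to FCRL6, 6 of 19 were higher and 5 lower, with a median of 0.20, and next to FCRLA and FCRLB 4 of 28 were higher and 5 lower, with a median of 0.067. Over the 1234 tested protein-coding genes of the whole chromosome the median was -0.032. HDGF, a growth factor gene and the most abundant neighbor, had 26067 and 23831 reads (log2 fold change 0.25).

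On the FCRL1 side of the cluster, the nearest neighbors with more than 100 reads were CD1D and CD1C, which encode antigen-presenting molecules for lipids. CD1D had 541 reads in Ramos against 208 in Ramos640, with a log2 fold change of -0.99 (-1.24 to -0.76). CD1C had 642 and 247 reads, also -0.99 (-1.21 to -0.78). On the FCRL5 side, ETV3 had 175 and 169 reads (0.33, from 0.017 to 0.64). ARHGEF11, further out on that side, had only 48 and 6 reads and was lower (-2.46, from -4.13 to -1.39). ETV3 and ARHGEF11 are named after their values were seen.

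Between FCRL6 and FCRLA, neighbors differed in both directions. SLAMF7, a receptor of the SLAM family known from plasma cells and NK cells, had 21 reads in Ramos against 426 in Ramos640 (log2 fold change 4.65, from 4.09 to 5.43), while LY9 of the same family had 496 and 152 (-1.32, from -1.60 to -1.06). IGSF8 (0.77), PEA15 (0.68), C1orf192 (0.68) and NR1I3 (0.61) were over 1.5-fold higher as well. TSTD1 (-1.09) and F11R (-0.79) were over 1.5-fold lower. FCGR2B, the inhibitory IgG receptor and the neighbor of FCRLA, is named after its values were seen. It had 11 reads in Ramos and none in Ramos640, which is at least 2.82-fold lower against the floor of 3 reads if the 11 reads are taken as exact, and at least 1.93-fold lower by the exact counting interval. DUSP12, on the other side of FCRLB and also named after its value was seen, had 1066 and 691 reads (-0.24, from -0.38 to -0.10).

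**Figure D3:**
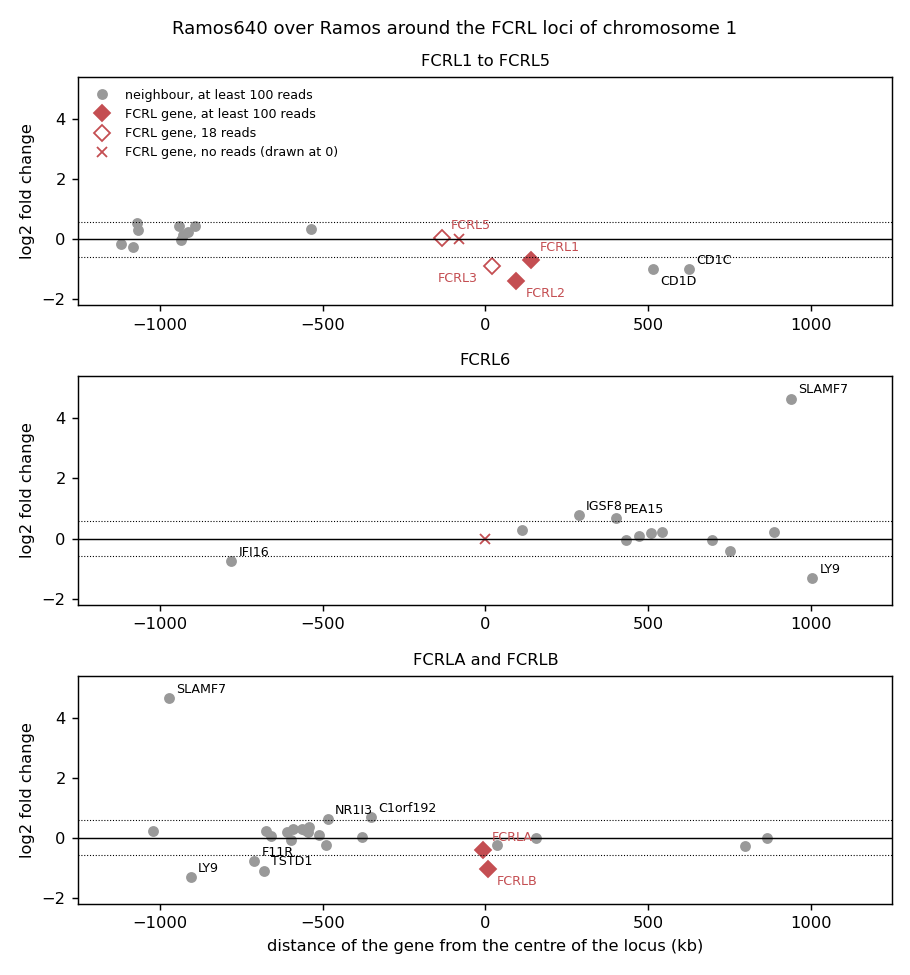
Log2 fold change of Ramos640 over Ramos for protein-coding neighbors with at least 100 reads (gray) and for the FCRL genes (red), against the distance in kb from the center of each of the 3 loci. Dotted lines mark 1.5-fold. Most neighbors lie between them. The neighbors below are CD1C, CD1D, LY9, TSTD1, F11R and IFI16, and those above are SLAMF7, IGSF8, PEA15, C1orf192 and NR1I3. FCRLB, FCRL1 and FCRL2 lie below, as does FCRL3, which had only 18 reads.

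Genes that work with the FCRL proteins were taken from lists written with earlier results of these data known. Of the 17 classical Fc receptor genes, 10 had no reads in either library, and 4 had at least 10 reads. FCER2, which encodes the IgE receptor CD23, had 20 reads in Ramos against 90 in Ramos640 (log2 fold change 2.48, from 1.84 to 3.33). TRIM21, a cytosolic antibody receptor and the most abundant of the list, had 1028 and 977 reads (0.31, from 0.18 to 0.44). FAIM3, the IgM receptor, had 68 and 39 reads (-0.41, from -1.03 to 0.17). FCGR genes have near-identical copies, so reads between them are uncertain. The median of the 4 tested genes was -0.053, also with FCGR2B at its bound.

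All 12 signaling partners were tested, and their median log2 fold change was -0.023. None was over 1.5-fold higher and 2 were over 1.5-fold lower, against 14.6% and 17.3% of all genes tested. CR2, the complement receptor CD21 of the B-cell coreceptor, had 1226 reads in Ramos and 83 in Ramos640 (-3.49, from -3.84 to -3.18). ZAP70, a kinase that binds phosphorylated activating motifs, had 410 and 127 reads (-1.30, from -1.61 to -1.02). SYK, the related kinase of B cells and the most abundant of the list, had 16879 and 13084 reads (0.014, from -0.019 to 0.047). PTPN6, which encodes SHP-1, had 432 and 454 reads (0.45, from 0.26 to 0.65) and was named for its role. LYN, the kinase that phosphorylates inhibitory motifs, was named for its role too and had 9716 and 5018 reads. Its log2 fold change was -0.57 (-0.62 to -0.52), and scaling to total counts brought the number of genes of the list over 1.5-fold lower to 3.

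Among the 10 ligand genes, 5 were tested, with a median log2 fold change of 0.76. Of these, 3 were over 1.5-fold higher and none was over 1.5-fold lower, against 14.6% and 17.3% of all genes tested. HLA-DRA and HLA-DRB1, which encode the ligand of FCRL6, had log2 fold changes of 1.02 (29316 and 45630 reads) and 1.11 (4039 and 6703 reads). IGHM, the heavy chain of IgM and the most abundant of the list, had 74596 and 96811 reads (0.76, from 0.74 to 0.77). The other tested genes were IGJ, with 54737 and 52500 reads (0.32), and IGHG3, with 62 and 35 reads (-0.43, from -1.09 to 0.18). IGHA1 and IGHA2, the heavy chains of IgA, had 1 and 0 reads in Ramos and 4 and 5 in Ramos640, too few to be tested. HLA-DRB1 and the immunoglobulin genes have near-identical relatives, so their reads could have been split.

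Of the markers of B-cell stages, the germinal center list was lower like the family, and the other lists went in both directions. Of 7 germinal center genes, 6 had an interval below 0 and 1 above it, against 37.2% and 34.9% of the genes with at least 100 reads. Their median log2 fold change was -0.51, and their summed reads were 50101 in Ramos and 26171 in Ramos640. MME (-0.92), RGS13 (-0.78) and MYBL1 (-0.63) were over 1.5-fold lower, and CD38 was higher (0.18, from 0.11 to 0.24). The 8 B-cell genes had a median of -0.21, with 3 intervals above 0 and 4 below. The 7 naive or memory genes had a median of 0.23 with 3 intervals on each side. The 5 tested plasma cell genes had a median of 0.48 with 3 above and 2 below. Over all genes tested, 29.6% had an interval above 0 and 31.6% below. The part of the lower germinal center genes in the FCRL result was not tested.

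**Figure D4:**
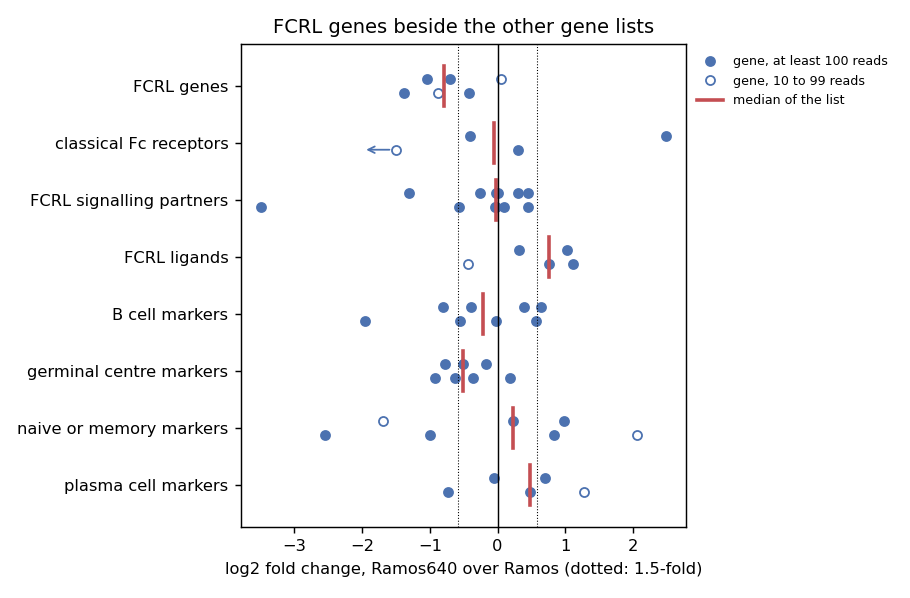
Log2 fold change of Ramos640 over Ramos for each tested gene of the FCRL family and of the other gene lists, with filled points for at least 100 reads and red bars for list medians. The medians of the FCRL genes (-0.79), germinal center markers (-0.51) and B-cell markers (-0.21) lie below 0. Those of the classical Fc receptors (-0.053) and signaling partners (-0.023) lie just below it. Those of the ligand genes (0.76), plasma cell markers (0.48) and naive or memory markers (0.23) lie above. The arrow marks FCGR2B, drawn at its bound.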

How the data were processed

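Gene expression was measured by RNA-seq on the Ion Proton in 1 library of Ramos and 1 of Ramos640 cells. The authors trimmed adaptors, mapped the reads with MapSplice to GRCh37 and deposited whole-number read counts per gene without normalization. The counting program, its annotation and its use of strand and of reads that fit several genes are not given in the sources used here. The members, chosen by name, and the gene lists and settings were set with earlier results of these data known.

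From the deposited counts, median-of-ratios size factors (1.14 for Ramos and 0.876 for Ramos640) were computed, as in the DEseq algorithm of the study, in Python (version 3.11.15) with scipy (version 1.17.1). TMM factors came from edgeR (version 4.0.16). With 1 library per line no dispersion can be estimated, so no test was run. Intervals at 95% are exact Clopper-Pearson intervals of the share of reads that came from Ramos640, exact Poisson intervals of levels, and exact conditional intervals of the ratio of fold changes for pairs of genes. They cover counting error only, as does the floor of 3 reads for a count of 0. These steps were tested on simulated data. Gene positions, exon lengths and GC content came from GENCODE v44lift37, which matched 28793 rows and 84.1% of the genes tested. The GC trend was a running median of 501 genes among protein-coding ones counted 100 times or more. All 8 FCRL genes matched the RefSeq promoter table.

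All members are named. From each list the genes with at least 100 reads past 1.5-fold are named, up to 5 in each direction, with the most abundant gene. Some genes are named outside this rule, among them FAIM3, IGJ, IGHG3, IGHA1 and IGHA2. With 2 libraries a gene's pattern is 1 ratio, so no gene was named for likeness to a member. Alternatives were other scalings, pseudocounts, read minimums, folds and lengths, and removal of the GC trend.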

Additional observations from a re-analysis of the deposited data

How the results depend on the processing

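FCRL1, FCRL2, FCRLA and FCRLB were lower in Ramos640 under all 5 alternatives of scaling, pseudocount and GC content. The log2 fold change of FCRL1 moved to -0.58 with the GC trend removed, and that of FCRLA to -0.50 with total counts, which are the values outside the counting interval. FCRL5 changed sign with total counts (-0.019) and with the GC trend removed (-0.068), inside its counting interval. The count of 4 members over 1.5-fold lower was 3 with a pseudocount of 10, with the GC trend removed and with a minimum of 100 reads, and 2 at a fold threshold of 2. For the 4 other gene lists together, 13 genes were over 1.5-fold higher and 15 lower, which a minimum of 1 read moved to 28 and 24, and a minimum of 100 reads to 9 and 8, as these settings admit more or fewer genes. Total counts moved the median log2 fold change of all genes tested by -0.080 and TMM factors by -0.0097. Apart from the named settings, the cause of these moves was not tested. Levels per length of the 6 genes with reads were higher with the longest transcript, and FCRL5 came to 0.0488 RPKM in Ramos and 0.0481 RPKM in Ramos640.

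No paired analysis was possible because each cell line has 1 library. Leaving out a library was not possible for the same reason. Depth limits FCRL3, FCRL4, FCRL5 and FCRL6, for which changes as large as that of FCRL2 could not be detected.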
